A study of Xenopus tropicalis with 15 samples.

Results

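Tail tissue of Xenopus tropicalis tadpoles kept for 24 h after amputation in 2-methoxyestradiol (2ME) was compared with tail tissue taken at the moment of amputation, to see which transcripts still changed after amputation under the compound. The 2ME libraries and the untreated libraries at 0 hours post amputation (hpa) were chosen by their titles, 3 of each, so 6 of the 15 libraries of the series enter this comparison. All tadpoles were wild-type, at NF stage 41 (3 days post fertilisation), reared at 23 °C, and had the posterior tail amputated. The 0 hpa tissue was a piece of about 250 µm in front of the amputation plane, and the 24 hpa tissue was about 250 µm of tail from tadpoles kept in 5 µM 2ME. The 3 libraries at 24 hpa in 0.1% DMSO are the amputated group without the compound, and the labels do not say whether the 2ME medium held DMSO too. Time, place along the tail and compound therefore all differ between 2ME and 0 hpa and cannot be told apart in that comparison. The labels say neither how many tadpoles made up a library nor what a replicate number stands for, so the p-values reflect how far these libraries spread, which may be technical.

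A tadpole tail cut at this age is covered by a wound epidermis within hours, draws in leukocytes, and then builds a regeneration bud from which spinal cord, notochord and muscle grow back under Wnt, FGF, BMP, activin, Notch and Hedgehog signals. 2ME is a natural metabolite of oestradiol that disturbs microtubules and, in mammalian cells, reduces the amount of the hypoxia-inducible factor HIF1A, a transcription factor that switches on glycolysis, vessel growth and other responses to low oxygen. Reactive oxygen species made at the wound are known to be needed for tail regeneration in Xenopus.

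Total RNA was measured as estimated counts per gene model, 17.3 to 19.6 M counts per library at 0 hpa and 21.2 to 22.9 M with 2ME, and values below are CPM, counts relative to the library's total, after TMM scaling, which evens out library composition. A change was called where edgeR's quasi-likelihood F test, fitted over all 15 libraries, gave a Benjamini-Hochberg adjusted p under 0.05. Log2 ratios are given with an approximate standard error (SE), and means with SD, n = 3. That SE is the size of the log2 ratio divided by the square root of the F statistic. It is rough where a group is close to 0 counts. Of 18823 gene models tested, 10670 (56.7%) were called between 2ME and 0 hpa, 5426 (28.8%) higher and 5244 (27.9%) lower with 2ME, and the median log2 ratio of all of them was 0.01. Changes of at least 2-fold were found for 1382 higher models (7.34%) and for 2421 lower models (12.9%). With library sizes alone in place of TMM factors all log2 ratios shifted up by a median of 0.15, and 63.4% of the calls were rises, against 50.9% with TMM. Changes below are relative to the TMM scale, and directions of small changes depend on it. Most of the tail's own markers were present. Detected were actc1, mylpf and ckm of muscle, col2a1 of notochord and cartilage, sox2 of spinal cord, itln1 of epidermal secretory cells and foxj1 of multiciliated cells. Markers of liver, pancreas, lens and gut were at or near 0. The epidermal keratin gene krt61 was near 0 too, at 0.113 to 0.255 CPM at 0 hpa, and was not tested.

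The test of whether a gene changed differently with 2ME and with DMSO is the comparison of the 2ME and DMSO libraries, since both sets of ratios use the same 0 hpa libraries. In that comparison 5749 models (30.5%) were called, 2634 (14.0%) higher and 3115 (16.5%) lower with 2ME, and this count fell to 3766 without DMSO replicate 2. Between DMSO and 0 hpa 11854 models (63.0%) were called, 6056 (32.2%) higher and 5798 (30.8%) lower with DMSO. Libraries that do not overlap between groups were common, at 63.9% of models for 2ME and 0 hpa and 45.2% for 2ME and DMSO. With library sizes alone 74.0% of the calls between 2ME and DMSO were rises, against 45.8% with TMM, so list counts of at least 4 are followed below by their value under library sizes alone or without a library where that moved them by over 1.5 times. Smaller counts often changed under such settings.

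**Figure D1:**
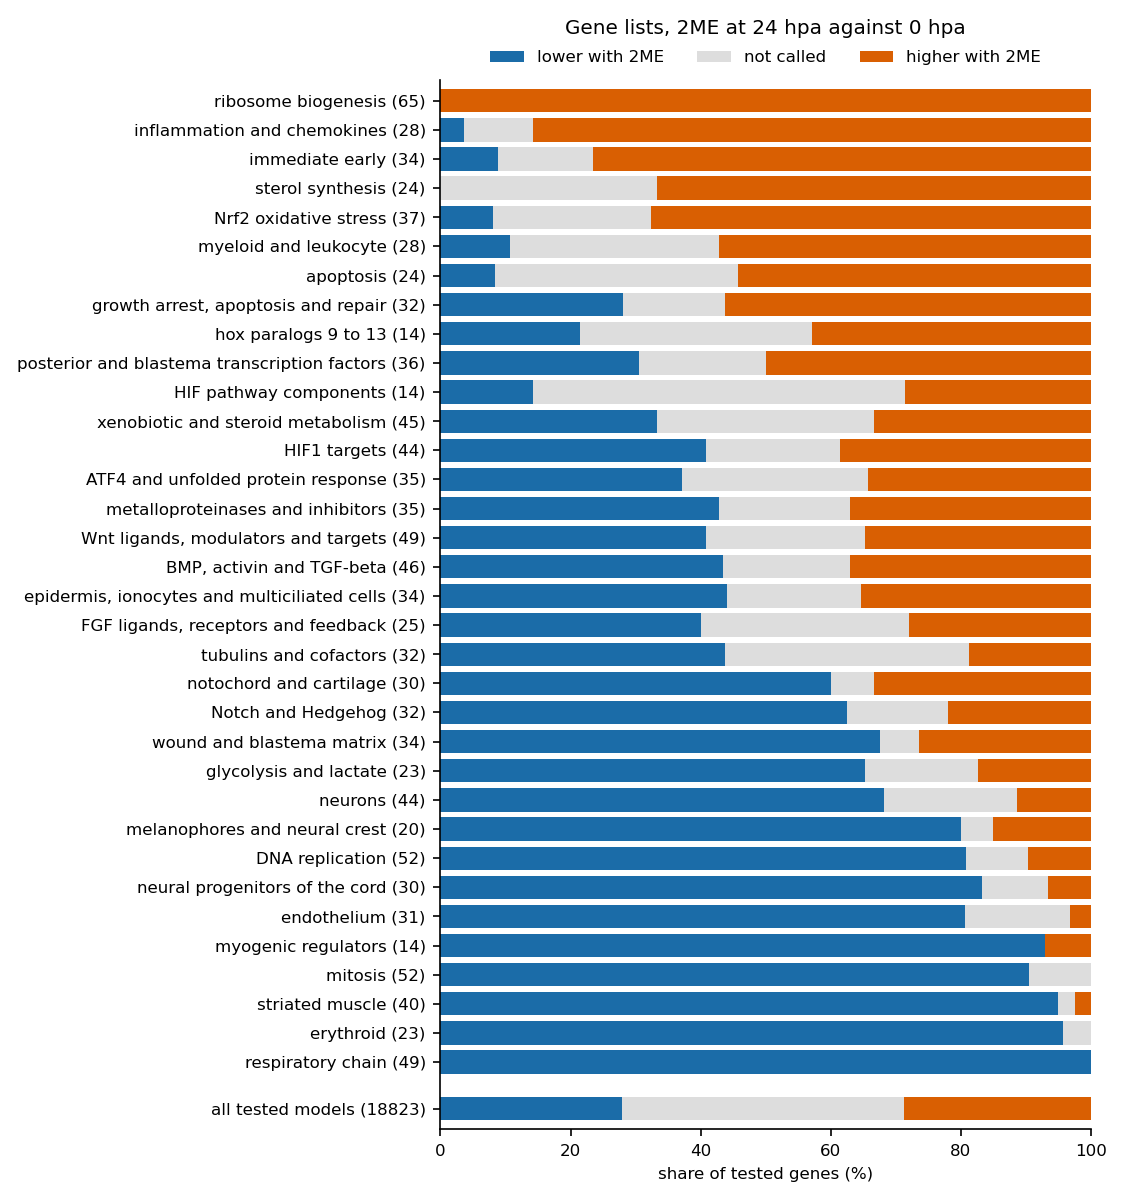
Share of the tested genes of each list that were higher (orange), lower (blue) or not called (grey) with 2ME at 24 hpa against 0 hpa, in percent, with the number tested in brackets and all tested models in the bottom bar. All 65 ribosome biogenesis genes were higher, and nearly all muscle and red cell genes were lower.

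The largest named rises included secreted metalloproteinases, keratins, hormones and transcription factors. The collagenase gene mmp13l measured 0.318, 0.106 and 0.243 CPM at 0 hpa and 332, 389 and 311 CPM with 2ME. It was close to the detection limit at 0 hpa and among the abundant transcripts in every 2ME library (log2 ratio 10.60 ± 0.33), and the DMSO libraries held a similar amount (398 ± 41.2 CPM). Other secreted metalloproteinases behaved likewise: the gelatinase gene mmp9.2 rose from 0.525 ± 0.292 to 232 ± 13.9 CPM and the collagenase gene mmp1 rose from 11.4 ± 0.802 to 507 ± 23.8 CPM. Other genes among the 15 largest named rises were keratins (krt51 and krt18.2), the cytokine gene il11, the serine protease gene prss8l100494289, the notochord homeobox gene not, the hormone genes stc1 and pthlh, the transcriptional repressor gene hes2, the matrix Gla protein gene mgp, the secreted glycoprotein gene olfm4, and xa-1. No count of krt51 or il11 was found at 0 hpa, so 2ME was at least 106-fold higher for krt51 and at least 105-fold higher for il11 against a limit of 3 counts over the group. The keratin gene krt51 measured 5.31, 7.02 and 6.39 CPM with 2ME and 15.7, 14.5 and 13.4 CPM with DMSO, and it was lower with 2ME than with DMSO in all libraries (log2 -1.22 ± 0.17). The protease gene prss8l100494289 went the other way, at 52.6 CPM with 2ME and 22.1 CPM with DMSO (log2 1.25 ± 0.22).

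Metalloproteinases and their inhibitors did not move as a group. Of 35 tested, 13 were higher and 15 lower with 2ME than at 0 hpa, and the median log2 ratio was -0.06. The 13 and 15 were 37.1% and 42.9% of the list, against 28.8% and 27.9% of all tested models. On the deposited CPM, which carry no TMM factor and gave 15322 models to test, 9 were lower. The collagenase and gelatinase genes mmp1, mmp9.1 and mmp13 and the further metalloproteinase gene mmp11 rose, mmp9.1 by 2.22 and mmp11 by 2.48 on the log2 scale. The membrane-type gene mmp14, which activates other metalloproteinases, rose from 172 ± 4.78 to 354 ± 0.863 CPM. The fallers were mmp17 (-2.65 ± 0.17) and the ADAMTS proteases adamts2 (-1.82 ± 0.14) and adamts5, which process collagen and proteoglycans. Against DMSO, 4 members were higher (7 with library sizes alone, 2 without 2ME replicate 1 or DMSO replicate 2) and 4 lower (2 on the deposited CPM), and mmp7, a matrilysin of epithelia, was lower with 2ME (log2 -0.63 ± 0.10). Both counts of 4 were 11.4% of the list, against 14.0% higher and 16.5% lower among all tested models.

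Matrix genes changed in both directions too, but more of them fell. Of 34 tested genes of wound and blastema matrix, 9 rose and 23 fell (median log2 -0.71). Fibronectin (fn1), the provisional matrix of wounds, measured 297, 362 and 312 CPM at 0 hpa and 5026, 5363 and 5307 CPM with 2ME, a rise present in all 2ME libraries (log2 4.02 ± 0.12). The protease inhibitor gene serpine2 rose from 7.21 ± 0.27 to 61.9 ± 2.89 CPM. Among the genes that fell, lox, which crosslinks collagen and elastin, went from 289 ± 7.05 to 23.1 ± 2.68 CPM, and postn, a matricellular protein of fibroblasts, went from 3556 ± 97.3 to 885 ± 36.6 CPM. No gene among fn1, lox and postn passed the test between 2ME and DMSO, with log2 ratios of -0.04 for fn1, 0.17 for lox and -0.04 for postn.

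**Figure D2:**
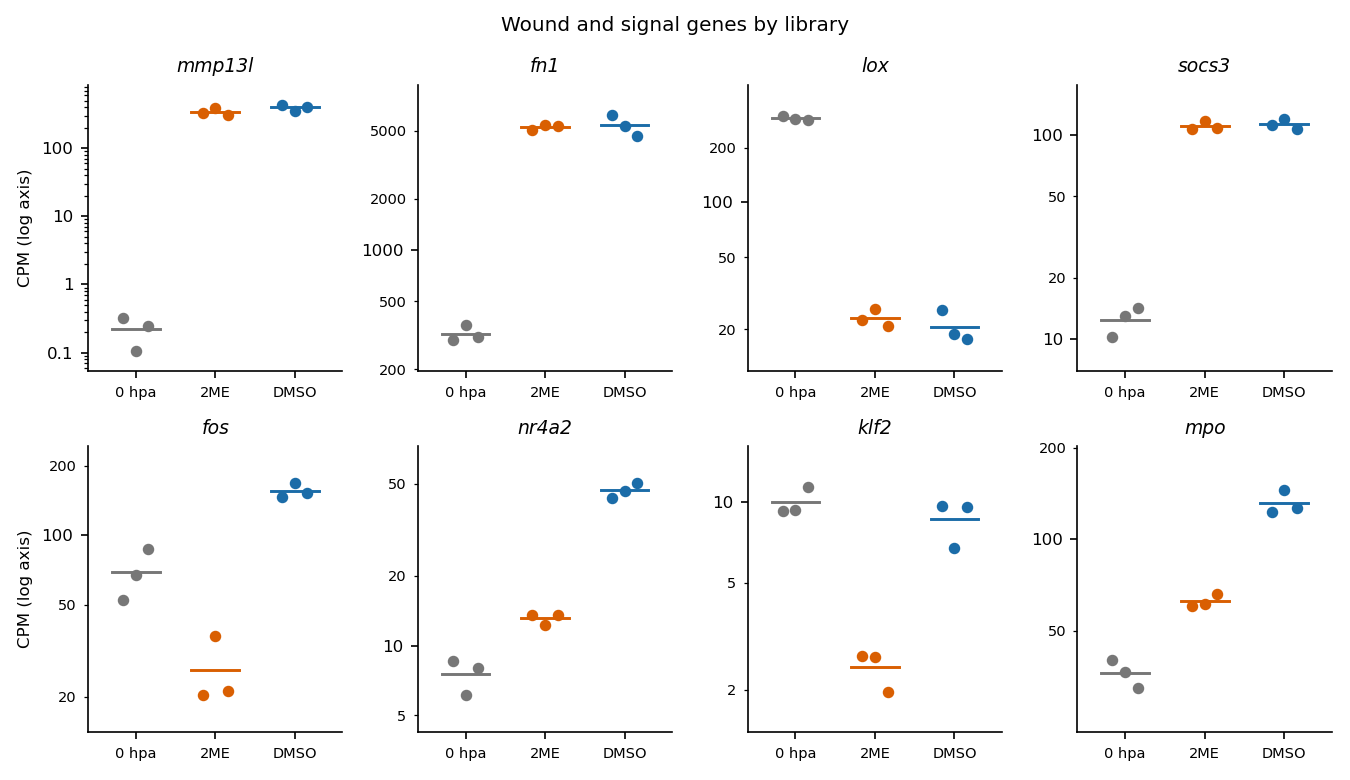
CPM per library on a log axis for 8 genes in the 0 hpa, 2ME and DMSO groups, 1 point per library with the group mean as a bar. The 2ME and DMSO points lie together for mmp13l, fn1, lox and socs3, and apart for fos, nr4a2, klf2 and mpo.

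Inflammatory genes rose with 2ME nearly as a block. Of 28 tested genes of inflammation and chemokines 24 rose and 1 fell, with a median log2 ratio of 1.23, and with DMSO 24 rose with a median of 1.503. The cytokine signalling brake socs3 rose from 12.45 ± 1.99 to 111 ± 5.23 CPM, the complement gene c3 from 152 ± 24.3 to 1014 ± 53 CPM, and the interleukin gene il1b measured 0.445, 0.583 and 0.609 CPM at 0 hpa and 8.45, 12.7 and 8.89 CPM with 2ME, higher in every 2ME library (log2 4.17 ± 0.52). The cytokine receptor gene il1r1 and the transcription factor gene cebpb rose further with 2ME than with DMSO (log2 difference 0.86 ± 0.11 and 0.68 ± 0.14). The chemokine gene cxcl11, whose product attracts lymphocytes, did the reverse: it stood at 0.64 CPM with 2ME, where its change from 0 hpa did not pass (adjusted p = 0.368, edgeR), and at 6.71 CPM with DMSO.

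Leukocyte genes rose less with 2ME than with DMSO. Of 28 tested genes of myeloid cells and leukocytes 16 rose, 3 fell and 9 did not pass against 0 hpa (median log2 0.61). With DMSO 23 rose with a median of 1.37. The neutrophil enzyme gene mpo measured 39.9, 36.5 and 32.4 CPM at 0 hpa and 60.3, 61.2 and 66.2 CPM with 2ME, and 122, 145 and 127 CPM with DMSO. Its 3 groups do not overlap, and 2ME lies between the other groups (log2 against DMSO -1.07 ± 0.09). The macrophage receptor gene csf1r (log2 against DMSO -1.09 ± 0.09) and the myeloid transcription factor gene spi1 (-0.93 ± 0.10) had the same order of means, whereas the neutrophil growth factor receptor gene csf3r rose from 5.54 ± 0.491 to 22.7 ± 1.71 CPM and did not pass the test against DMSO (-0.16 ± 0.10, adjusted p = 0.229). In all, 17 of the 28 genes were lower with 2ME than with DMSO and 0 higher, or 12 lower with library sizes alone. In bulk tissue fewer cells of a type and less RNA per cell cannot be told apart, for these and all lists below.

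Immediate early genes, which cells switch on within minutes of a stimulus, included a gene that changed in opposite directions with 2ME and DMSO. Of 34 tested, 26 were higher with 2ME than at 0 hpa and 3 lower (median log2 0.84). The AP-1 genes junb (2.11 ± 0.12), fosl1 (3.54 ± 0.30) and fosl2 (1.67 ± 0.13) rose. The AP-1 gene fos measured 52.4, 67.3 and 87.6 CPM at 0 hpa and 20.3, 36.6 and 21.2 CPM with 2ME, and 146, 168 and 153 CPM with DMSO. All 2ME libraries lie below all 0 hpa libraries and all DMSO libraries lie above them. The log2 ratio of fos to 0 hpa was -1.41 ± 0.23 with 2ME and 1.17 ± 0.21 with DMSO, and the difference between them was -2.58 ± 0.23 (adjusted p = 9.41e-07, edgeR). The nuclear receptor gene nr4a2 rose with both, from 7.57 ± 1.31 to 13.1 ± 0.724 CPM with 2ME and to 46.7 ± 3.46 CPM with DMSO (log2 difference -1.83 ± 0.11). The shear-responsive transcription factor gene klf2 measured 9.29, 9.33 and 11.4 CPM at 0 hpa and 2.68, 2.64 and 1.97 CPM with 2ME. It fell in every 2ME library (log2 -2.04 ± 0.17), while its change with DMSO did not pass (-0.21 ± 0.15, adjusted p = 0.248). Stress genes of this list stood on both sides of DMSO, with atf3 higher (log2 0.92 ± 0.17) and gadd45g lower (-0.59 ± 0.08).

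Genes of the signals that drive the regeneration bud changed in both directions, and those of Notch and Hedgehog mostly fell. Of 49 tested Wnt genes 17 rose and 20 fell (16 with library sizes alone, 10 of 40 on the deposited CPM). Of 46 tested genes of BMP, activin and TGF-beta signalling 17 rose and 20 fell. Of 25 FGF genes 7 rose (12 with library sizes alone) and 10 fell (8 with library sizes alone, 6 of 22 on the deposited CPM). Of 32 Notch and Hedgehog genes 7 rose and 20 fell. Rises made up 34.7%, 37.0%, 28.0% and 21.9% of these lists in turn, against 28.8% of all tested models. Falls made up 40.8%, 43.5%, 40.0% and 62.5%, against 27.9%. The ligand gene fgf20, a signal of the wound epidermis in fish fins, measured 0.0636, 0.265 and 0.304 CPM at 0 hpa and 4.98, 4.56 and 5.69 CPM with 2ME, higher in all 2ME libraries (log2 4.52 ± 0.43), and it did not pass the test against DMSO (-0.25 ± 0.26). The activin subunit gene inhba rose from 4.61 ± 0.85 to 50.9 ± 3.16 CPM, less than with DMSO (69.5 ± 3.93 CPM, log2 difference -0.45 ± 0.11), and that difference did not pass with library sizes alone. Another FGF ligand gene, fgf16, rose from 2.62 ± 0.801 to 21.8 ± 1.79 CPM.

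Of the Wnt pathway, the effector gene ctnnb1, which encodes beta-catenin, rose from 692 ± 18.5 to 1519 ± 28.6 CPM, and the transcription factor gene lef1 measured 26, 30.8 and 28 CPM at 0 hpa and 95.2, 84.3 and 92 CPM with 2ME, with no overlap (log2 1.68 ± 0.13). The feedback inhibitor gene axin2 rose by 0.28 ± 0.07 with 2ME and by 0.49 ± 0.07 with DMSO, and the difference passed (log2 -0.22 ± 0.07, adjusted p = 0.0319, edgeR), but not with library sizes alone, with limma on the deposited CPM, with only those groups in the fit, or without 0 hpa replicate 3, 2ME replicate 1 or 2, or DMSO replicate 1 or 2. The transcription factor gene sp8, which acts in the epithelium of limb buds, was higher with 2ME than with DMSO (88.9 against 54.6 CPM). Wnt genes that fell with 2ME included the ligand gene wnt10b (-4.32 ± 0.23) and the secreted antagonist genes wif1 (-3.17 ± 0.12) and sfrp1. The BMP antagonist genes chrd.1 (-3.43 ± 0.22) and grem1 (-2.16 ± 0.12) fell, and the BMP pseudoreceptor gene bambi (1.89 ± 0.08) rose. Among Notch and Hedgehog genes the ligand gene jag1 rose (1.14 ± 0.08) and the ligand genes dlc (-4.19 ± 0.32) and dll1 (-2.33 ± 0.18) fell, and the Notch target gene hey1 was lower with 2ME than with DMSO (-1.06 ± 0.09).

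Transcription factors of the posterior body and of the blastema were more often higher than lower. Of 36 tested 18 rose and 11 fell with 2ME (median log2 0.32), and 19 rose and 11 fell with DMSO. The stem cell factor gene sall4 rose from 12.54 ± 1.51 to 61.6 ± 2.77 CPM and the posterior homeobox gene cdx2 from 12.6 ± 0.871 to 48.4 ± 2.11 CPM, the homeobox gene msx1 rose by 0.48 ± 0.09, and the mesenchymal homeobox gene prrx1 fell from 24 ± 5 to 4.06 ± 1.92 CPM. The appendage homeobox gene dlx5 rose from 48.8 ± 2.93 to 165 ± 14 CPM, to a mean under that with DMSO (202 ± 7.62 CPM), a difference that did not pass with library sizes alone, without 2ME replicate 1 or without DMSO replicate 2.

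**Figure D3:**
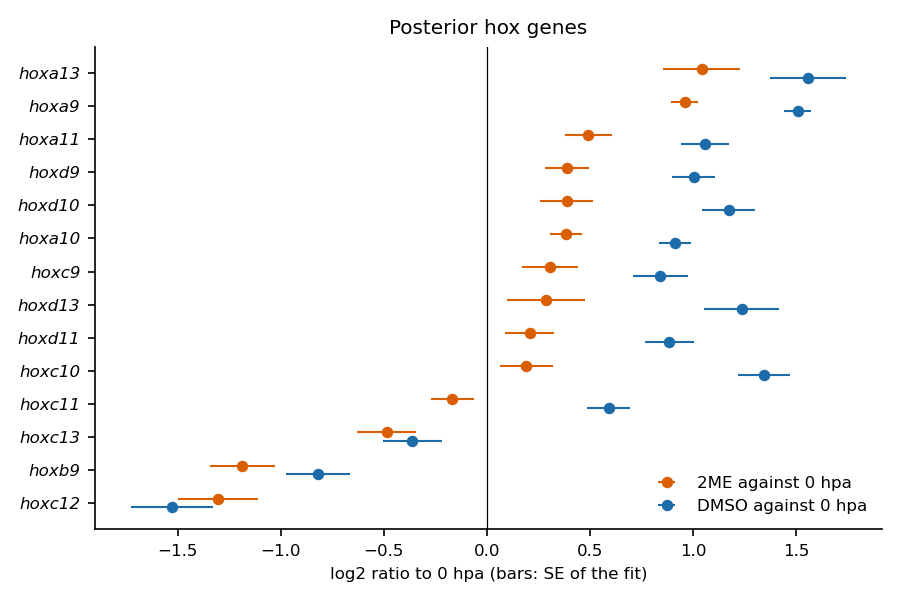
Log2 ratio to 0 hpa of the 14 tested hox genes of paralog groups 9 to 13 with 2ME and with DMSO, points with SE bars. The ratios of hoxc10 are 0.19 with 2ME and 1.34 with DMSO, and both conditions use the same 0 hpa libraries.

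The posterior hox genes, which pattern the body along its axis, were mostly lower with 2ME than with DMSO. Of 14 tested genes of paralog groups 9 to 13, 6 rose, 3 fell and 5 did not pass with 2ME, against 11, 3 and 0 with DMSO, and the median log2 ratio was 0.30 with 2ME and 0.96 with DMSO. In the comparison of 2ME with DMSO 11 of the 14 were lower and 0 higher (median log2 -0.56). With library sizes alone 10 were lower. These genes made up 0.0632% to 0.0683% of counts with DMSO and 0.0435% to 0.0479% with 2ME. Their share was 0.0341% to 0.0446% with 0.5 µM echinomycin and 0.0368% to 0.0377% with 10 µM IWR-1. A share below that with DMSO was thus not particular to 2ME. The gene hoxc10 measured 48.2, 49.2 and 59.2 CPM at 0 hpa and 57.4, 56.3 and 64.9 CPM with 2ME, and 116, 154 and 127 CPM with DMSO. The 2ME libraries overlap those at 0 hpa (log2 0.19 ± 0.13, adjusted p = 0.223, edgeR) and all lie below the DMSO libraries (log2 -1.15 ± 0.13, adjusted p = 8.31e-06). Its rise against 0 hpa passed with library sizes alone and with limma on the deposited CPM. The genes hoxa13 and hoxa9 still rose with 2ME, hoxa13 from 12.7 ± 2.98 to 26.2 ± 0.341 CPM and hoxa9 from 58.5 ± 0.865 to 114 ± 6.86 CPM, but less than with DMSO (log2 differences -0.52 ± 0.17 and -0.55 ± 0.06), and for hoxa13 the difference did not pass with library sizes alone or without any single 2ME or DMSO library. The gene hoxc12 fell with 2ME, from 28.7 ± 4.1 to 11.6 ± 3.44 CPM, and fell with DMSO too (-1.53 ± 0.20), and its difference did not pass.

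Growth genes moved in opposite directions: transcripts for ribosome production rose while those for replication, mitosis and respiration fell. All 65 tested ribosome biogenesis genes rose with 2ME (median log2 0.97) and with DMSO (0.90), for example tbl3 from 30.0 ± 0.236 to 78.4 ± 1.58 CPM, nop2 from 74.3 ± 0.429 to 173 ± 1.88 CPM and rrp7a from 11.8 ± 0.806 to 35.3 ± 0.781 CPM, all needed to process ribosomal RNA. All 49 tested respiratory chain genes were lower with 2ME than at 0 hpa (median log2 -0.51), such as ndufs8 of complex I (-0.82 ± 0.06) and atp5f1a of the ATP synthase (-0.72 ± 0.05). With DMSO 37 of them fell. The 21 of these genes that were lower with 2ME than with DMSO became 1 with library sizes alone and 1 without DMSO replicate 2. Without 2ME replicate 1, 2 or 3 they became 4, 13 and 13, and without DMSO replicate 1 12.

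Of 52 tested genes of mitosis 47 fell and 0 rose with 2ME (median log2 -0.53), and with DMSO 46 fell. The proliferation marker gene mki67 measured 265, 219.6 and 218 CPM at 0 hpa and 133, 127 and 118 CPM with 2ME and 124, 122 and 126 CPM with DMSO: both sets of 24 hpa libraries lie below 0 hpa and overlap each other (log2 0.02 ± 0.13 between them). DNA replication differed. Of 52 tested genes 42 fell with 2ME (median log2 -0.65) and 25 with DMSO (-0.27), and 29 were lower with 2ME than with DMSO, or 11 with library sizes alone, 11 without DMSO replicate 2, 18 without 2ME replicate 1 and 19 without 2ME replicate 3. The chromatin assembly gene chaf1a measured 86.9, 76.6 and 81.2 CPM at 0 hpa and 41.7, 49.3 and 47.7 CPM with 2ME. It fell in every 2ME library (log2 -0.82 ± 0.10), while its change with DMSO did not pass (-0.12 ± 0.10, adjusted p = 0.293). The thymidine kinase gene tk1 (-0.66 ± 0.11 with 2ME, 0.01 ± 0.11 with DMSO) and the histone mRNA binding gene slbp (-0.43 ± 0.08 against DMSO) were likewise lower with 2ME than with DMSO. The replication factor genes e2f1 (-1.77 ± 0.16) and mcm10 (-1.53 ± 0.12) fell most, and dhfr, of thymidylate synthesis, rose (1.08 ± 0.14).

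Tubulins build the microtubules that 2ME disturbs. Microtubules were not measured, and a link between them and the transcripts below was not tested. Of 32 tested tubulins and tubulin cofactors 6 rose and 14 fell against 0 hpa (median log2 -0.13), while with DMSO 13 rose and 11 fell. Against DMSO 15 were lower with 2ME and 1 higher, or 8 lower and 5 higher with library sizes alone and 8 lower without either DMSO replicate 2 or 2ME replicate 1. With upper-quartile or RLE factors 3 rose against 0 hpa, as many as without 0 hpa replicate 2 or 3, 2ME replicate 3 or DMSO replicate 1. The 32 genes made up 0.507% to 0.529% of counts with DMSO, 0.456% to 0.474% with 2ME and 0.451% to 0.459% at 0 hpa. Their share was 0.365% to 0.382% with echinomycin and 0.42% to 0.441% with IWR-1. A tubulin share below that with DMSO was thus not particular to 2ME. The alpha-tubulin gene tuba1a measured 126, 147 and 161 CPM at 0 hpa and 72.7, 65.8 and 65.6 CPM with 2ME, and 112, 127 and 104 CPM with DMSO. The 2ME libraries lie below both other groups without overlap (log2 against DMSO -0.75 ± 0.10). The beta-tubulin genes tubb4b (-0.31 ± 0.07) and tubb2b (-0.52 ± 0.11) were also lower with 2ME than with DMSO. The alpha-tubulin gene tuba1b changed by -0.35 ± 0.08 with 2ME and by 0.29 ± 0.07 with DMSO, and the beta-tubulin gene tubb4a changed by -0.17 ± 0.05, a call lost with library sizes alone, and 0.29 ± 0.05. The neuronal gene tubb3 did not pass against 0 hpa (-0.14 ± 0.12, adjusted p = 0.366). The gene tubb6 rose from 23 ± 3.79 to 78.2 ± 8.11 CPM, as with DMSO (94.6 ± 9.22 CPM). The haematopoietic gene tubb1 fell (log2 -5.30 ± 0.51), and its level at 0 hpa followed the globins described below, with 93.8, 23.2 and 36.8 CPM at 0 hpa and 1.84, 1.19 and 0.832 CPM with 2ME.

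**Figure D4:**
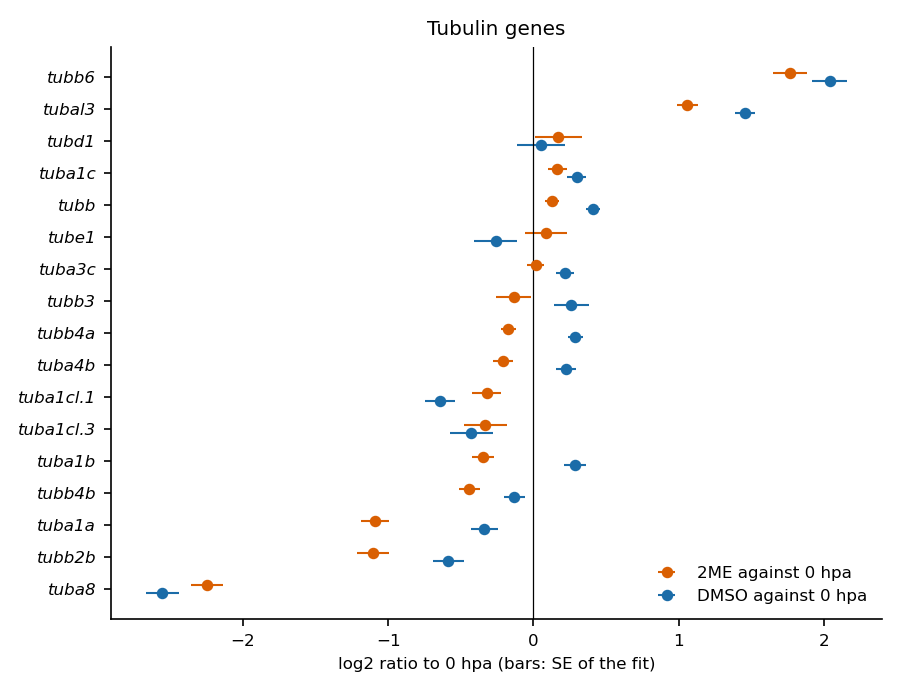
Log2 ratio to 0 hpa of the tested tubulin genes (alpha, beta, delta and epsilon chains and tubal3) with 2ME and with DMSO, points with SE bars, tubb1 left out because its ratio lies far below the others. Among them tuba1a stands at -1.09 with 2ME and -0.34 with DMSO, and both conditions use the same 0 hpa libraries.

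Of 14 tested HIF pathway components 4 rose, 2 fell and 8 did not pass with 2ME (with library sizes alone 6 rose and 1 fell). The 4 and 2 were 28.6% and 14.3% of the list, against 28.8% higher and 27.9% lower among all tested models. Of 44 tested HIF1 target genes 17 rose and 18 fell (median log2 -0.11). The 17 and 18 were 38.6% and 40.9% of the targets, against 28.8% and 27.9% of all tested models. Against DMSO 10 targets were higher with 2ME and 6 lower, or 2 lower with library sizes alone and 3 without DMSO replicate 2. The 10 and 6 were 22.7% and 13.6% of the targets, against 14.0% and 16.5% of all tested models. The transcript of hif1a, which encodes the factor itself, measured 239, 225 and 219 CPM at 0 hpa and 275, 270.1 and 265 CPM with 2ME, and 231, 217 and 234 CPM with DMSO. It was higher in every 2ME library than in any 0 hpa or DMSO library (log2 0.25 ± 0.05 and 0.25 ± 0.05), and HIF1A protein was not measured. The partner gene arnt rose by 0.35 ± 0.06. The related factor gene epas1, of vessels, fell from 50.8 ± 7.85 to 21.6 ± 0.133 CPM with 2ME and further with DMSO (11.1 ± 0.979 CPM). Among the targets stc1 rose from 0.406 ± 0.218 to 35.7 ± 3.75 CPM, bhlhe40, a clock repressor, rose by 2.32 ± 0.11 and stc2 by 2.76 ± 0.21, while the vessel growth factor gene vegfa fell from 8.45 ± 1.74 to 3.69 ± 0.923 CPM and lox fell as above. The fall of vegfa was larger with DMSO, to 2.12 ± 0.367 CPM (log2 of 2ME against DMSO 0.79 ± 0.24), a difference that did not pass without 2ME replicate 1 or DMSO replicate 2. The gene stc1 was lower with 2ME than with DMSO (-0.47 ± 0.17, adjusted p = 0.0492, edgeR), and most alternatives lost that call. The mitochondrial hypoxia gene higd1a was higher with 2ME than with DMSO (log2 0.65 ± 0.06).

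Of 23 tested genes of glycolysis and lactate transport 4 rose and 15 fell with 2ME (median log2 -0.87). With DMSO 4 rose and 16 fell (median log2 -1.13). In the comparison of 2ME with DMSO 7 were higher with 2ME and 1 lower. The fallers with 2ME included muscle forms, pgam2 (-4.33 ± 0.21) and pfkm (-2.89 ± 0.14), and the general enzyme gene gapdh (-1.52 ± 0.10). The hexokinase gene hk1 rose with 2ME (0.61 ± 0.07). These falls stand beside a loss of muscle transcripts given next, and the part of muscle in them was not tested.

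Transcripts of several differentiated tissues fell with 2ME. Of 40 tested striated muscle genes 38 fell (median log2 -2.81), as did 38 with DMSO (-3.47), and muscle transcripts made up 2.77% to 3.12% of counts at 0 hpa, 0.371% to 0.581% with 2ME and 0.269% to 0.355% with DMSO. Actin actc1 measured 5027, 5020.4 and 5708 CPM at 0 hpa and 918, 873 and 579.7 CPM with 2ME, and 529, 514 and 409.8 CPM with DMSO. The 2ME libraries lie far below 0 hpa and above all DMSO libraries, replicate 3 being the lowest (log2 -2.73 ± 0.14 against 0 hpa and 0.71 ± 0.14 against DMSO). In all 27 of the 40 muscle genes were higher with 2ME than with DMSO and 0 lower, or 16 higher without 2ME replicate 1. The myosin gene myh4 fell from 911 ± 16.8 to 35.1 ± 17.5 CPM. The Z-disc gene tcap was the exception, rising from 0.99 ± 0.182 to 9.79 ± 2.68 CPM. Myogenic regulators fell with them, 13 of 14, including the satellite cell gene pax7 (from 5.53 ± 0.705 to 1.27 ± 0.54 CPM) and the differentiation factor gene myf6 (-3.25 ± 0.25). The receptor gene met, which guides muscle precursors and is used in epithelia too, rose (1.65 ± 0.10).

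Red cell genes fell furthest, but their level at 0 hpa was uneven. Of 23 tested 22 fell with 2ME (median log2 -4.94) and 23 with DMSO (-4.78). The globin gene hbe1 measured 3623, 804 and 1212 CPM at 0 hpa and 28.8, 20.2 and 19.5 CPM with 2ME. Replicate 1 at 0 hpa was far above replicates 2 and 3, and all 0 hpa libraries were far above all 2ME libraries (log2 -6.36 ± 0.52). The same replicate was the highest at 0 hpa for epb42, of the red cell membrane, and for misp, nrl and nt5dc4, which with the globins hba2, hba-l2, hbz, hbg2, hba-l3, hba-l4 and hba-l5, epor, the erythropoietin receptor gene, ankrd2, a stretch-responsive gene of muscle, and vwa7 were the 15 largest named falls. For ankrd2 the libraries at 0 hpa were even, at 127, 120.2 and 140.5 CPM at 0 hpa and 1.09, 1.55 and 1.27 CPM with 2ME. Globin genes are so alike that the counting may split their reads, which leaves each single value uncertain.

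Endothelial genes fell with 2ME in 25 of 31 cases and rose in 1 (median log2 -1.72). The fallers included the junction gene pecam1 (-2.41 ± 0.29) and the scavenger receptor gene stab2 (-2.40 ± 0.15). With DMSO 28 of the 31 fell and 0 rose (median log2 -1.79). Against DMSO 5 were higher with 2ME and 2 lower, 16.1% and 6.45% of the list, against 14.0% and 16.5% of all tested models. The 5 became 8 with library sizes alone and as few as 2 when single libraries were left out. The transmembrane gene cd34 fell less than with DMSO (0.72 ± 0.18). Pigment and neural crest genes fell with 2ME in 16 of 20 cases, the melanin enzyme genes dct from 36.2 ± 0.24 to 2.9 ± 0.66 CPM and tyr from 37.8 ± 1.71 to 5.62 ± 0.75 CPM. With DMSO 14 of the 20 fell (median log2 -2.36, against -1.92 with 2ME).

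Neuron transcripts fell more with 2ME than with DMSO. Of 44 tested neuron genes 30 fell and 5 rose with 2ME (median log2 -1.59), and 29 fell and 6 rose with DMSO (-1.19). In the direct comparison 19 were lower and 1 higher with 2ME than with DMSO, or 12 lower without either DMSO replicate 2 or 2ME replicate 2. The 5 that rose were 3 without 0 hpa replicate 1. The gene slc32a1, the vesicle transporter of inhibitory neurons, measured 8.33, 6.74 and 9.43 CPM at 0 hpa and 0.711, 0.274 and 0.744 CPM with 2ME, and 2.19, 2.02 and 1.79 CPM with DMSO. The groups do not overlap and 2ME is the lowest (log2 against DMSO -1.77 ± 0.34). The synaptic vesicle gene vamp2 (-1.13 ± 0.13 against DMSO) and the microtubule-binding gene map2 (-0.76 ± 0.11) were lower too. The growth cone gene gap43 rose (0.59 ± 0.08), and dcx, of migrating young neurons, rose from 0.425 ± 0.106 to 2.32 ± 0.419 CPM. Of 30 tested genes of neural progenitors 25 fell (16 of the 20 tested on the deposited CPM) and 2 rose. The gene sox2 fell from 19.6 ± 1.39 to 12.45 ± 1.38 CPM and the glial transporter gene slc1a3 from 137 ± 8.65 to 8.13 ± 1.19 CPM. The Notch effector gene hes5.3 rose (1.45 ± 0.15).

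Of 30 tested genes of notochord and cartilage 10 rose and 18 fell (median log2 -0.86), and 15 were lower with 2ME than with DMSO, with 11 lower under library sizes alone. The collagen gene col2a1 measured 3678, 3846 and 3868 CPM at 0 hpa and 1289, 1153 and 1093 CPM with 2ME, lower in every 2ME library (log2 -1.69 ± 0.08), and it was lower than with DMSO as well (-0.40 ± 0.07). The keratin gene krt18.1, of notochord and simple epithelia, rose from 206 ± 2.28 to 744 ± 70.8 CPM. Epidermal genes were divided, 12 higher and 15 lower of 34, or 9 lower with library sizes alone. The 12 and 15 were 35.3% and 44.1% of the list, against 28.8% and 27.9% of all tested models. The keratin gene krt62 measured 2160.5, 2597 and 2717 CPM at 0 hpa and 754, 745 and 684 CPM with 2ME, and 1521, 1895 and 2276 CPM with DMSO. Its fall with 2ME is larger than with DMSO (log2 difference -1.38 ± 0.13). The adhesion gene cdh1 rose from 216 ± 6.08 to 645 ± 5.26 CPM, and the larval keratin gene krt12.4 fell from 1488 ± 157 to 94.4 ± 9.62 CPM.

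Genes of the oxidative stress response included those furthest above all other libraries of the series. The transcription factor NRF2 switches on these genes when electrophiles or oxidants modify its inhibitor KEAP1. Of 37 tested, 25 rose and 3 fell with 2ME (median log2 0.61), against 22 and 6 with DMSO (0.46). In the direct comparison 17 were higher with 2ME than with DMSO and 4 lower. With library sizes alone 1 was lower, and without DMSO replicate 2, 2 were lower. The log2 differences of the list from DMSO ran from -3.99 to 2.55, so the largest was towards a lower value with 2ME. The glutathione transferase gene gstp1 measured 78.3, 80.1 and 86.6 CPM at 0 hpa and 1962, 2198 and 2387 CPM with 2ME, and 619, 610.4 and 525 CPM with DMSO. All 2ME libraries lie above the 12 other libraries of the series (log2 4.74 ± 0.11 against 0 hpa and 1.90 ± 0.09 against DMSO), with 271 ± 12.9 CPM after 0.5 µM echinomycin and 524 ± 64.6 CPM after 10 µM IWR-1. The growth inhibitor gene osgin1 measured 1.78, 2.12 and 1.46 CPM at 0 hpa and 12.47, 13.2 and 14.2 CPM with 2ME, and 1.91, 2.6 and 2.24 CPM with DMSO. Its change with DMSO did not pass (log2 0.33 ± 0.18, adjusted p = 0.127, edgeR), and with 2ME it rose by 2.88 ± 0.16. The malic enzyme gene me1, which supplies NADPH, rose further than with DMSO, from 8.26 ± 1.94 to 26.6 ± 2.64 CPM (DMSO 10.6 ± 0.0555).

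The glutathione reductase gene gsr rose from 34.7 ± 1.75 to 129 ± 2.9 CPM, against 69.2 ± 4.04 CPM with DMSO. The cystine transporter gene slc7a11, which feeds glutathione synthesis, rose from 5.69 ± 0.145 to 18.5 ± 1.04 CPM, against 8.4 ± 0.556 CPM with DMSO. Thioredoxin (txn) measured 7.19, 5.99 and 8.28 CPM at 0 hpa and 119, 171 and 278 CPM with 2ME, and 96.4, 96.8 and 55 CPM with DMSO. The 2ME libraries are spread widely and all lie above the DMSO libraries (log2 1.198 ± 0.23). The catalase gene cat.1 fell (-1.57 ± 0.09) and was lower with 2ME than with DMSO (log2 -0.27), a call that many alternatives lost. The gene nqo1, a quinone reductase often used as an NRF2 marker in mammals, did not pass against 0 hpa (0.16 ± 0.07, adjusted p = 0.0708). It passed as a rise with library sizes alone, with limma on the deposited CPM and with only those groups in the fit.

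**Figure D5:**
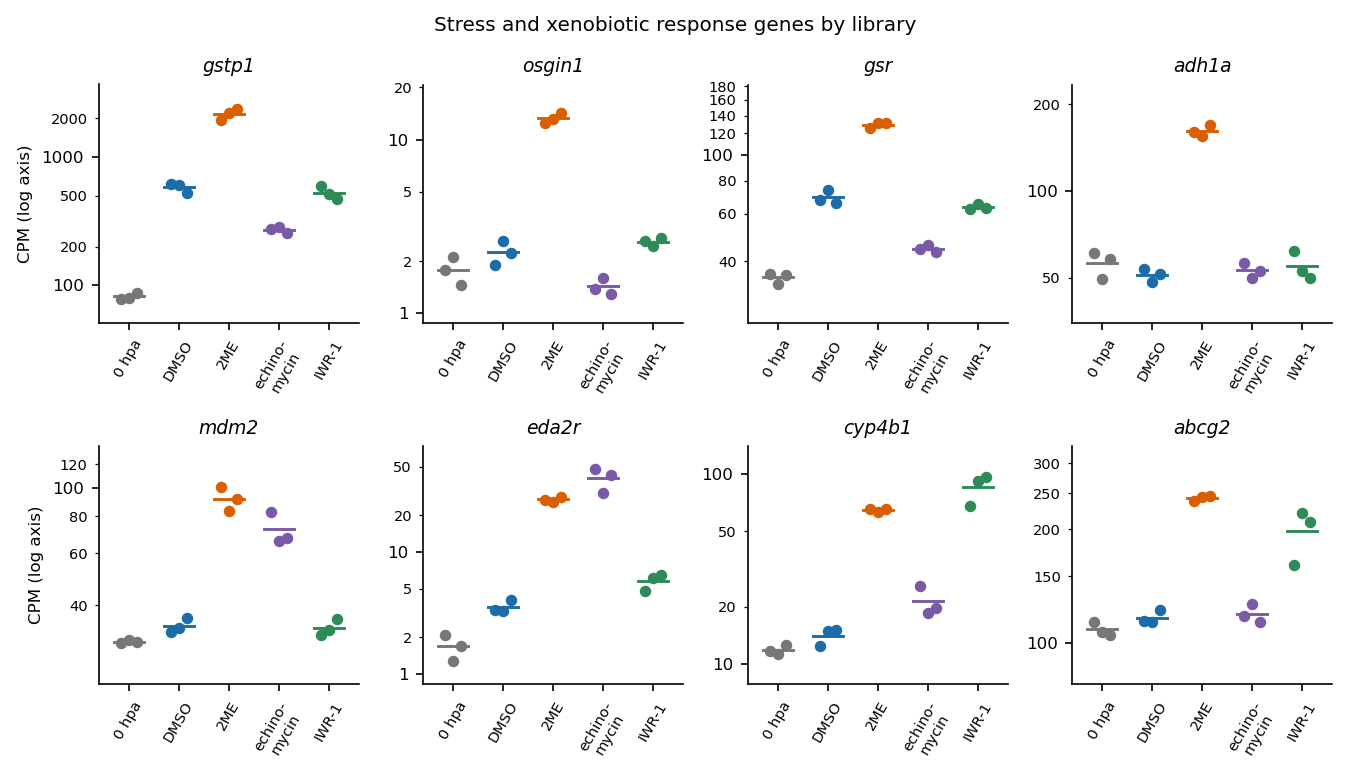
CPM per library on a log axis for 8 genes of oxidative stress, growth arrest and xenobiotic responses in all 5 groups, 1 point per library with the group mean as a bar. For gstp1, osgin1, gsr and adh1a all 2ME points lie above all others, while the echinomycin means of mdm2 and eda2r and the IWR-1 means of cyp4b1 and abcg2 also lie above the DMSO means.

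Genes of growth arrest, apoptosis and DNA repair that stress can induce rose more often than all tested models and fell about as often. Of 32 tested, 18 rose and 9 fell (median log2 0.31), and 11 were higher with 2ME than with DMSO and 4 lower. The 18 and 9 were 56.2% and 28.1% of the list, against 28.8% and 27.9% of all tested models. The 11 were 34.4% of the list, against 14.0% of all tested models. The 4 were a smaller share of the list than the 16.5% found lower among all tested models. With library sizes alone 5 fell against 0 hpa, as many as without 2ME replicate 1, and 17 were higher and 1 lower than with DMSO. Without 2ME replicate 1 or DMSO replicate 2, 2 were lower than with DMSO. The ubiquitin ligase gene mdm2 measured 29.8, 30.5 and 30.1 CPM at 0 hpa and 100.3, 83.8 and 91.8 CPM with 2ME, and 32.5, 33.4 and 36.1 CPM with DMSO. Every 2ME library lies above every 0 hpa and DMSO library (log2 1.61 ± 0.09 against 0 hpa), and the change with DMSO did not pass (0.18 ± 0.09, adjusted p = 0.105). The receptor gene eda2r measured 2.1, 1.27 and 1.7 CPM at 0 hpa and 26.9, 25.8 and 28.5 CPM with 2ME, and 3.37, 3.27 and 4.03 CPM with DMSO (log2 of 2ME against DMSO 2.92 ± 0.17). The cell cycle inhibitor gene cdkn1a rose from 19.7 ± 1.49 to 66.7 ± 3.56 CPM, against 39 ± 2.66 CPM with DMSO. The cyclin gene ccng1 changed in opposite directions, by 0.73 ± 0.09 with 2ME and -0.40 ± 0.09 with DMSO (difference 1.13 ± 0.09). With echinomycin mdm2 stood at 72.4 ± 9.29 and eda2r at 40.3 ± 8.87 CPM. Of 24 tested apoptosis genes 13 rose and 2 fell, the pro-apoptotic gene bcl2l11 by 1.96 ± 0.17 and the protective gene mcl1 by 0.62 ± 0.05.

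Genes that metabolise or export foreign compounds and steroids changed in both directions, 15 higher and 15 lower (9 with library sizes alone) of 45 (median log2 0.08). Each count of 15 was 33.3% of the list, against 28.8% higher and 27.9% lower among all tested models. Against DMSO 13 were higher with 2ME and 7 lower, or 3 lower with library sizes alone and 4 without DMSO replicate 2. The 13 and 7 were 28.9% and 15.6% of the list, against 14.0% and 16.5% of all tested models. The cytochrome P450 gene cyp4b1 measured 11.8, 11.3 and 12.6 CPM at 0 hpa and 65.4, 63.1 and 65.3 CPM with 2ME, with no overlap (log2 2.44 ± 0.14), and stood at 14.1 ± 1.5 CPM with DMSO. The cytochrome gene cyp2e1 rose from 2.51 ± 0.212 to 18.3 ± 1.08 CPM, and the efflux pump genes abcb1 from 6.08 ± 0.0292 to 21.9 ± 2.05 CPM and abcg2 from 108 ± 4.49 to 243 ± 4.32 CPM. IWR-1 libraries held 85.2 ± 15.2 CPM of cyp4b1 and 48.2 ± 13 CPM of cyp2e1, so the means of these genes were not highest with 2ME. The catechol methyltransferase gene comt, whose enzyme forms 2ME in mammals, fell (-0.88 ± 0.08). The gene cyp26a1, which breaks down retinoic acid, measured 31.8, 35.8 and 38.6 CPM at 0 hpa and 11.3, 12.3 and 14.8 CPM with 2ME, and it was lower with 2ME than with DMSO (log2 -1.29 ± 0.11).

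Of 35 tested genes of the ATF4 and unfolded protein responses 12 rose and 13 fell (8 with library sizes alone) with 2ME. With DMSO 17 rose and 3 fell. The 12 and 13 were 34.3% and 37.1% of the list, against 28.8% and 27.9% of all tested models. In the direct comparison 20 were lower with 2ME than with DMSO, or 13 with library sizes alone. The 20 were 57.1% of the list, against 16.5% of all tested models. The serine synthesis gene psat1 fell from 52.2 ± 2.05 to 26.6 ± 3.76 CPM, and chac1, which degrades glutathione, rose from 43 ± 3.47 to 78.2 ± 3.39 CPM, less than with DMSO (163 ± 20.4 CPM). Sterol synthesis genes rose in 16 of 24 cases and fell in 0 (median log2 0.48), msmo1 from 21.3 ± 1.46 to 49.9 ± 3.73 CPM and sqle from 19.8 ± 0.845 to 35.7 ± 1.89 CPM, and 6 were higher with 2ME than with DMSO, or 12 with library sizes alone and 3 without 2ME replicate 3.

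Across all genes, 530 models (2.82%) had all 2ME libraries above the 12 other libraries and 515 (2.74%) had all of them below. Those with the widest gap above the others, called against each of the other 4 groups (44.1% of models were called against echinomycin and 22.5% against IWR-1), included gstp1, osgin1 and gsr, aifm3-like, xbg100491922, the alcohol dehydrogenase gene adh1a, the microtubule-associated gene eml2, ociad2 and the carbonyl reductase gene cbr1.1. The gene eml2 rose from 33.4 ± 0.876 to 67.7 ± 3.1 CPM with 2ME and fell with DMSO (-0.22 ± 0.07). The gene adh1a rose from 56.2 ± 5.88 to 161 ± 7.18 CPM, and its change with DMSO did not pass (-0.13 ± 0.09, adjusted p = 0.196). Those with the widest gap below were klf2, slc32a1, vamp2, chrna2, an acetylcholine receptor subunit, sncb, a synuclein of nerve endings, selenop1, which carries selenium, creb3l1, a factor of secretory cells, siglec1, a macrophage lectin, and ahnak2. The gene selenop1 fell from 57.8 ± 1.66 to 19.8 ± 3.01 CPM, the gene creb3l1 from 61.4 ± 1.92 to 12.7 ± 0.926 CPM, and siglec1 from 2.98 ± 0.727 to 0.892 ± 0.398 CPM, which did not pass with DMSO (0.36 ± 0.24, adjusted p = 0.194).

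Some genes named for a large difference from DMSO add to the groups above. The sulfate donor synthesis gene papss2 rose from 83.4 ± 4 to 253 ± 3.91 CPM with 2ME and fell with DMSO (-0.43 ± 0.15), and the adhesion gene dscaml1 rose from 4.14 ± 0.606 to 15.4 ± 0.567 CPM and fell with DMSO (-0.67 ± 0.19). The leukocyte gene rgs1 (-2.17 ± 0.26), the interferon-induced gene gbp5 (-1.76 ± 0.26), the galectin gene lgals1.1 (-1.67 ± 0.17) and gpnmb, of macrophages and pigment cells (-1.77 ± 0.18), were lower with 2ME than with DMSO.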

How the data were processed

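Libraries were grouped by their titles. Trim Galore 0.6.5, kallisto and edgeR are the tools the authors used, per the submitters' processing notes. For kallisto and edgeR no version is given in the sources used here. The gene models carry the tag XT-9_1 in their names, per the files, and no genome build is named otherwise. Estimated counts per gene model were deposited by the authors for each library. They were rounded here, since 21.4% lay over 1e-06 away from an integer. TPM and effective lengths were deposited beside them, per the file headers, and no test used the TPM. The deposited CPM of the authors sum to the same total in every library, so they hold no composition factor, and they served in 1 alternative. Gene names are those of the files. Where models share a symbol, the model with the highest total was taken for a list. Near-identical genes can exchange reads in the counting.

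Counts were tested in R 4.3.3 with edgeR 4.0.16: TMM factors, filterByExpr (minimum count 10, total 15), 1 coefficient per group over all 15 libraries, the quasi-likelihood F test (common biological coefficient of variation 0.0936, 10 residual degrees of freedom) and Benjamini-Hochberg adjustment over all 18823 tested of 34192 models. The script was tested on simulated data. The members, the 34 gene lists and the alternatives were chosen with earlier results of these data known. Genes were named by size of change with at least 5 CPM in a group, by list, by difference from DMSO, by the gap to the 12 other libraries, or from a short list of hypoxia, Wnt, growth arrest and tissue genes. The text also names genes chosen after their values were seen: adamts5, c3, cxcl11, dcx, dll1, fosl2, gadd45g, gapdh, hoxc10, map2, mcl1, me1, mki67, mmp11, mmp13, mmp14, nop2, nqo1, pecam1, postn, sfrp1, slbp, socs3, tubb2b and tubb4b. Some genes of the rule are not reported here. Figures and tables used Python 3.11.15, pandas 2.3.3, numpy 2.4.6 and matplotlib 3.10.9. As alternatives, the scaling was by RLE factors, by upper-quartile factors or by library size alone, and further settings were other filters, DESeq2 1.42.0, only the groups compared, the replicate number as a block, an effective-length offset, limma 3.58.1 on log2(deposited CPM + 1), a 2-fold threshold and leaving out each library of the 3 groups in turn.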

Additional observations from a re-analysis of the deposited data

Results flagged for a closer look

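The effects against 0 hpa with 2ME and with DMSO differed, by the test of 2ME against DMSO, in 5749 of 18823 gene models. For 7 of the genes named above, many of them named for a difference from DMSO, the changes against 0 hpa were called in opposite directions as well. The log2 difference of 2ME from DMSO was -2.58 for fos, -0.63 for tuba1b and -0.46 for tubb4a, which fell with 2ME and rose with DMSO. For tubb4a the fall with 2ME was not called with library sizes alone (log2 -0.02). The difference was 1.13 for ccng1, 2.56 for dscaml1, 1.24 for eml2 and 2.03 for papss2, which rose with 2ME and fell with DMSO. Groups of 3 libraries are too small for a test of single outlying libraries.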

How the results depend on the processing

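The count of models called between 2ME and 0 hpa, 10670, was 2339 in the test against a 2-fold change and 9861 to 10819 when each library was left out in turn. The same settings gave 66, and 3766 to 5669, for 2ME against DMSO, and 2568, and 10861 to 11848, for DMSO against 0 hpa. All other alternatives stayed within 1.5 times of the main counts. The lowest value for 2ME against DMSO came without DMSO replicate 2. A replicate block gave 10468 calls between 2ME and 0 hpa, 5446 between 2ME and DMSO and 11678 between DMSO and 0 hpa. Libraries with the same number at 0 hpa and with 2ME did not deviate together (correlations across genes of -0.0781, -0.039 and 0.0233), so the numbers were not taken as pairs.

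The scaling moved small changes most. Library sizes alone shifted the median log2 ratio by 0.153 for 2ME against 0 hpa and by 0.14 for 2ME against DMSO, and limma on the deposited CPM, which carry no factor, by 0.15 and 0.137. With that limma fit 66.4% of calls against 0 hpa and 75.4% of those against DMSO were rises. No named gene reversed among called values. Over 3523 values of 187 named genes against 0 hpa, 6 values of 2 genes lost the call and 5 values of 2 genes gained it. Over 3518 values against DMSO, alternatives added after the data were seen, 147 values of 24 genes lost it and 44 values of 21 genes gained it. Of the 34 list medians 33 moved by more than the SD between 2ME libraries under at least 1 alternative. Depth limits the weak genes, since 3 counts equal 0.126 to 0.191 CPM in the 0 hpa and 2ME libraries.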
